A study of Mus musculus with 2 samples.

Results

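The osteoclast genes examined here are 10 genes that osteoclasts, or the cells that instruct them, are known for: the signals *Tnfsf11* and *Tnfrsf11b*, the receptors *Tnfrsf11a*, *Oscar* and *Calcr*, the transcription factor *Nfatc1*, and the effectors *Acp5*, *Ctsk*, *Mmp9* and *Atp6v0d2*. They were chosen by name, with the signals and ratios of these same arrays already known, so their values are given as a description and no test was made. All 10 have a probe, among 36405 gene names with a probe, and all 10 were measured on both arrays, among 19767 gene names measured on both. They carry 13 of the 55679 probes, with 3 genes on 2 probes and 7 genes on 1 probe.

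The data are 2 Agilent arrays of incisor RNA, 1 from wild-type and 1 from *Sox21* KO mice. *Sox21* encodes a transcription factor made in differentiating ameloblasts, the epithelial cells that lay down enamel, and the arrays compare gene expression in the tooth with and without it. The labels give the tissue as incisor and the age as postnatal day 0, the design text names both ameloblasts and whole tooth germs, and the study's methods give postnatal day 1. According to the methods, wild-type mice were C57BL/6J, the *Sox21* KO mice were a gift and were kept on a soft diet, and their strain background, the sex and the number of animals behind each RNA sample are not given in the sources used here. No treatment was named for either genotype.

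Osteoclasts are multinucleated cells that form by fusion of precursors of the monocyte and macrophage lineage and dissolve bone. Osteoblasts and stromal cells present RANKL, which binds RANK on the precursors and, together with the cytokine CSF1, switches on NFATc1 and through it the genes for acid secretion and matrix breakdown, while the soluble decoy osteoprotegerin takes RANKL away. In the jaw these cells resorb the bone around the growing tooth and open its path of eruption.

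All 13 probes of the osteoclast genes gave a higher signal in the *Sox21* KO incisor than in the wild-type incisor. By gene, with the brighter probe standing for the 3 genes with 2 probes, 10 of 10 were higher, against 50.4% of all genes measured on both arrays. A difference of at least 1.5-fold was seen for 4 of the 10, *Calcr*, *Tnfrsf11b*, *Mmp9* and *Tnfsf11*, against 3.01% of all genes (3 of the 10 with normexp background correction, where *Tnfsf11* fell short), and of at least 2-fold for *Calcr* alone, 1 of the 10 against 0.678% of all genes. These shares of all genes are the background of the arrays, and since the genes were picked with the ratios known, nothing is read from the difference. The median log2 ratio (*Sox21* KO over wild-type) of the 10 genes was 0.46, with a range of 0.13 to 1.36, and the median without *Calcr* was also 0.46. Over all genes it was 0.00.

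The normalised signal is the processed signal of a probe divided by the 75th percentile of all spots of its array, so that a value of 1 is the signal of a spot at that percentile. With 1 array per genotype there is no replicate error and no ratio has a replicate check. Errors after ± are those the scanner software assigned to the signal of a spot; they describe the array measurement and leave out the spread between animals. The error they give to a log2 ratio was 0.20 to 0.21 for the 13 probes. Since it was nearly the same for dim and bright probes, a multiple of it mostly restates the log2 ratio. A second yardstick is the SD of the log2 ratio between repeat spots of the same probe, whose median was 0.0854 over 268 probes with repeats. Among the 13 probes, 13 had a ratio above this spot SD, 12 had one above their own scanner error and 7 had one above 2 scanner errors. Of all 19767 genes measured on both arrays, 6830 were higher and 6940 lower by more than this spot SD, so passing it was common. The scanner error counts were not taken over all genes, and nothing is read from any of these counts. In whole tissue, fewer cells of a type and less RNA per cell cannot be told apart.

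The arrays were alike in quality. Each held 62976 spots, none of them saturated, the 75th percentile lay at a processed signal of 268 in wild-type and 276 in *Sox21* KO, and 49.7% and 50.4% of the non-control spots were well above background. The targeted gene was lower on the array labelled *Sox21* KO but not absent: the brighter *Sox21* probe had a processed signal of 1362 in wild-type and 659 in *Sox21* KO (47.0% of wild-type once each is divided by the 75th percentile of its array), the other had 286 and 103 (35.1%, likewise scaled), and both were still well above background in *Sox21* KO. Whether these probes lie in the deleted part of the gene is not given in the sources used here, so they do not settle how complete the loss of *Sox21* was. All 13 osteoclast gene probes passed the scanner's mark for signal well above background in both genotypes.

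**Figure D1:**
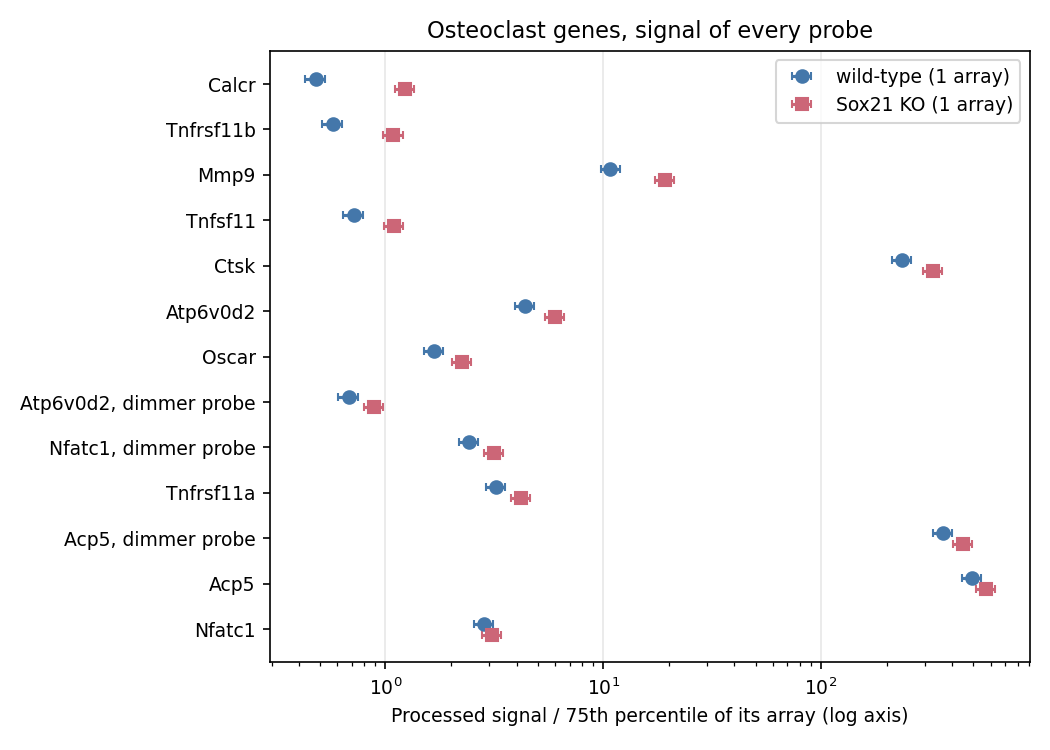
Normalised signal of each of the 13 osteoclast gene probes in wild-type (circles) and *Sox21* KO (squares) incisor, on a log axis, ordered from the lowest log2 ratio at the bottom to the highest at the top. Bars are the scanner's error of 1 array, not replicate error. The square lies to the right of the circle for all 13 probes, with the widest gap for *Calcr* (0.478 and 1.23) and the narrowest for the brighter *Nfatc1* probe (2.83 and 3.09).

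Both secreted or membrane-bound signals that set RANK activity were higher in the *Sox21* KO incisor. *Tnfsf11* encodes RANKL, the ligand that drives osteoclast formation. Its normalised signal was 0.714 ± 0.0733 in wild-type and 1.09 ± 0.110 in *Sox21* KO, a log2 ratio of 0.61 (1.53-fold), which was 2.95 times its scanner error. With normexp background correction its log2 ratio was 0.45, under 1.5-fold. *Tnfrsf11b* encodes osteoprotegerin, the decoy receptor that binds RANKL and keeps it from RANK. Its normalised signal was 0.573 ± 0.0600 in wild-type and 1.09 ± 0.110 in *Sox21* KO, a log2 ratio of 0.92 (1.90-fold). The ligand and its decoy thus differed between genotypes in the same direction. The log2 ratio of *Tnfsf11* minus that of *Tnfrsf11b* was −0.31 with a scanner error of 0.30, about as large as the difference itself. Against the spot SD, which is 0.121 for a difference of 2 ratios, it was 2.57 times as large, and with normexp background correction the difference was −0.22. These errors are technical, so with 1 array per genotype it cannot be said whether the ligand and the decoy differed in ratio. *Tnfsf11* lies on chromosome 14, as does *Sox21*, with 39.956 Mb between their probes (mm9).

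The *Tnfrsf11b* probe lies on chromosome 15, minus strand, at 54082760 to 54082819 (mm9). Its first 30 of 60 bases are shown because it carried the second highest log2 ratio of the set.
Tnfrsf11b probe, chr15:54082790-54082819, minus strand: tttatccagctgtcatgtctggttcagtat

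The 3 receptors differed in size of ratio. *Tnfrsf11a* encodes RANK, the receptor for RANKL on osteoclast precursors. Its normalised signal was 3.23 ± 0.323 in wild-type and 4.18 ± 0.418 in *Sox21* KO, a log2 ratio of 0.37 (1.29-fold). *Oscar* encodes a collagen-binding receptor that costimulates osteoclast precursors through the Fc receptor gamma chain. Its normalised signal was 1.67 ± 0.168 in wild-type and 2.25 ± 0.226 in *Sox21* KO, a log2 ratio of 0.43 (1.35-fold). The ratio of *Tnfrsf11a* was 1.82 times its scanner error and that of *Oscar* 2.11 times.

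*Calcr* encodes the calcitonin receptor, a marker of mature osteoclasts through which calcitonin halts resorption. Its probe, on chromosome 6 at 3635940 to 3635999 (minus strand, mm9), gave a processed signal of 128 ± 13.7 in wild-type and 339 ± 34.2 in *Sox21* KO. The normalised signal was 0.478 ± 0.0513 and 1.23 ± 0.124, a log2 ratio of 1.36 (2.58-fold), which was 6.42 times its scanner error and the highest of the set. Among all genes measured on both arrays, 60 (0.304%) had a ratio as high or higher. The study also lists this gene, printed as Calr, for another wild-type tooth sample that was not analysed here. Its normalised value there was far below that of the wild-type sample here, so wild-type samples can differ widely for *Calcr*. The ratio depended on the background correction, and with a normexp correction of the raw intensities it was 1.01. The first 30 of its 60 bases are printed since *Calcr* was the 1 gene of the set at least 2-fold apart.
Calcr probe, chr6:3635970-3635999, minus strand: ggacggattgaaggaaggatgttttttcaa

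*Nfatc1*, the transcription factor that directs osteoclast differentiation downstream of RANK and that is also used by many other cells, had the lowest ratio. Its brighter probe read 2.83 ± 0.284 in wild-type and 3.09 ± 0.309 in *Sox21* KO, a log2 ratio of 0.13 (1.09-fold) that was below its scanner error of 0.20. Its dimmer probe read 2.41 ± 0.242 and 3.14 ± 0.314, a log2 ratio of 0.38 (1.30-fold). The probes pointed the same way, and the gap between their ratios was wider than the median spot SD.

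Of the effectors, *Mmp9* had the highest ratio. It encodes matrix metalloproteinase 9, a gelatinase that osteoclasts and other cells release. It is the only osteoclast gene here with repeat spots, 10 on each array, and their processed signals ran from 2733 to 3078 in wild-type and from 4910 to 5666 in *Sox21* KO without overlap. The normalised signal was 10.8 ± 1.08 in wild-type and 19.2 ± 1.92 in *Sox21* KO, a log2 ratio of 0.83 (1.78-fold) with an SD of 0.026 between spots and a range of 0.80 to 0.87. The repeat spots are technical and share 1 RNA sample per genotype. The first 30 of the 60 bases of the probe, which lies on chromosome 2 at 164780620 to 164780679 (plus strand, mm9), are shown since it was the most often measured of the set.
Mmp9 probe, chr2:164780620-164780649, plus strand: ccaaccttttccagctactttagtcaatca

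The other effectors had smaller ratios. *Ctsk* encodes cathepsin K, the protease that cleaves collagen in the resorption pit. Its normalised signal was 236 ± 23.6 in wild-type and 326 ± 32.6 in *Sox21* KO, a log2 ratio of 0.47 (1.38-fold). *Atp6v0d2* encodes the d2 subunit of the vacuolar proton pump, which is enriched in osteoclasts and takes part in their fusion. Its brighter probe read 4.39 ± 0.439 and 6.02 ± 0.602, a log2 ratio of 0.46 (1.37-fold), and its dimmer probe read 0.678 ± 0.0705 and 0.889 ± 0.0904, a log2 ratio of 0.39 (1.31-fold), so the gap between the ratios of these probes was narrower than the median spot SD.

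*Acp5* encodes tartrate-resistant acid phosphatase, or TRAP, the enzyme whose staining identifies osteoclasts in sections. Its brighter probe read 495 ± 49.5 in wild-type and 573 ± 57.3 in *Sox21* KO, a log2 ratio of 0.21 (1.16-fold), which was 1.03 times its scanner error. The dimmer probe read 363 ± 36.3 and 446 ± 44.6, a log2 ratio of 0.30 (1.23-fold). The *Acp5* probes share 45 of 60 bases and are not independent measurements of the transcript. By role, the median log2 ratio was 0.77 for the 2 signals, 0.43 for the 3 receptors and 0.46 for the 4 effectors.

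The genes that work beside these 10 were described through lists of osteoclast functions. These lists and the marker lists below were chosen with earlier results of these data known. Among all genes measured on both arrays, 50.4% were higher in *Sox21* KO, which is the background for every count, and nothing is read from the counts. In acid secretion, 6 of 7 genes were higher and 1 lower in *Sox21* KO, with a median log2 ratio of 0.18. *Tcirg1*, the osteoclast a3 subunit of the proton pump, was the highest (normalised signal 3.50 in wild-type and 5.50 in *Sox21* KO, log2 ratio 0.65), and *Slc4a2*, the chloride and bicarbonate exchanger, was the lowest (log2 ratio −0.18). In fusion and attachment, 5 of 7 were higher and 2 lower (6 and 1 when each array was divided by its median), with a median of 0.46. *Ocstamp*, a membrane protein needed for fusion, was the highest (2.11 and 3.50, log2 ratio 0.73) and *Src*, the kinase needed for the ruffled border, the lowest (0.272 and 0.237, log2 ratio −0.20). Of the 14 measured subunits of the proton pump that most cells use, 8 were higher and 6 lower (10 and 4 when each array was divided by its median) with a median of 0.04, from −0.57 for *Atp6v0a1* to 0.23 for *Atp6v1c1*, and *Atp6v1b1* was not well above background in either genotype.

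Genes of the RANK pathway inside the cell split, with 7 of 12 higher, 5 lower and a median of 0.08. *Fos*, an AP-1 subunit that osteoclasts need, was the highest (1.28 and 1.90, log2 ratio 0.57). *Traf6*, the adaptor of RANK, was the lowest by its brighter probe (0.964 and 0.689, log2 ratio −0.48), while its dimmer probe gave a log2 ratio of 0.40, so the probes of *Traf6* disagreed in direction. Of the costimulation genes, which signal beside *Oscar*, 6 of 7 were higher and 1 lower, with a median of 0.15, from −0.11 for the kinase *Tec* to 0.32 for the phospholipase *Plcg2*. Dimmer second probes of 2 genes were well above background on 1 array alone: one of *Tec* in wild-type, at least 1.62-fold higher there, and one of *Ikbkg*, a regulatory subunit of the IkB kinase in the RANK pathway, in *Sox21* KO, at least 1.54-fold higher there.

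All 5 genes of the CSF1 axis were higher in *Sox21* KO, against 50.4% of all genes, with a median of 0.37. *Mitf*, a transcription factor of osteoclasts and pigment cells, was the highest (1.44 and 2.86, log2 ratio 0.98, with 0.57 at its dimmer probe) and *Il34*, a second ligand of the CSF1 receptor, the lowest (0.204 and 0.251, log2 ratio 0.30). Of the calcitonin system, to which *Calcr* belongs, 4 of 5 measured genes were higher, 1 was lower and the median was 0.31 (0.15 with normexp background correction and 0.21 with no requirement of being well above background). *Ramp1*, a partner protein of the calcitonin receptor family, was the highest (1.56 and 2.29, log2 ratio 0.55), although another of its probes gave −0.01 and a further one was well above background in *Sox21* KO only, at least 1.18-fold higher there, and *Calca*, the gene for calcitonin and its related peptide, was the lowest (2.77 and 2.28, log2 ratio −0.28). *Calcrl*, the sister receptor of *Calcr*, did not stand well above background in either genotype. No gene of these 7 lists was 2-fold apart, except that *Mitf* reached 1.06 when each array was divided by its median.

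**Figure D2:**
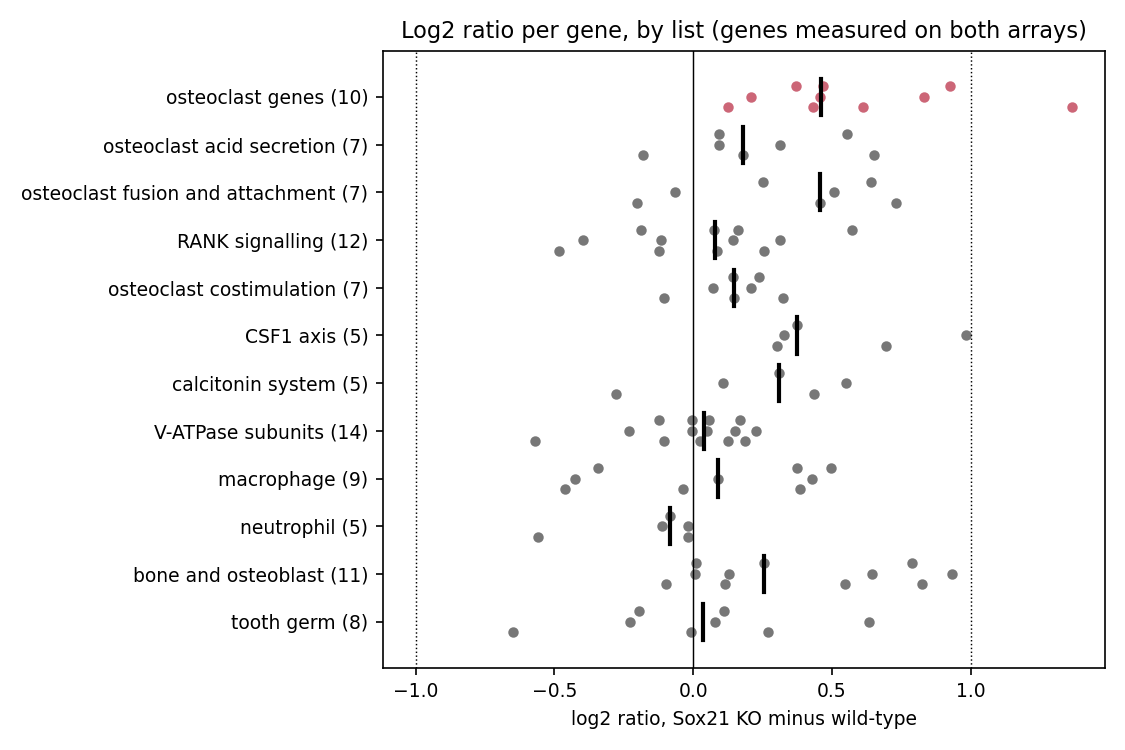
Log2 ratio (*Sox21* KO minus wild-type) of each gene measured on both arrays, by list, with the number of genes in brackets. Each dot is a gene, the thick bar is the median of its list, and dotted lines mark 2-fold. The osteoclast genes lie from 0.13 to 1.36, and *Calcr* is the only dot beyond a dotted line (with each array divided by its median, *Mitf* at 1.06 and *Dmp1* at 1.01 also are).

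Other cells in the sample were followed by marker lists. Of the macrophage markers, 9 of 12 were measured on both arrays, 5 higher and 4 lower, with a median log2 ratio of 0.09 (0.03 to 0.22 over the alternatives, the highest with no requirement of being well above background), from −0.46 for *Itgam* to 0.50 for *Cd68*. The summed normalised signal of these 9 was 59.2 in wild-type and 44.8 in *Sox21* KO, of which 53.6 and 38.9 came from the single bright *Itgam* probe, and the sum of the other 8 was 5.57 and 5.89. *Fcgr1*, *Lyz2* and *Ptprc* were well above background in *Sox21* KO only, where they read at least 1.79-fold, 1.12-fold and 1.09-fold higher than the wild-type limit (the higher of the probe's own wild-type signal and the lowest signal that was well above background on that array). Their processed signals in wild-type and *Sox21* KO were 18.4 and 39.3, 21.1 and 24.5, and 19.2 and 23.9. The lowest signal well above background was 21.3 in wild-type and 19.5 in *Sox21* KO. *Lyz2* and *Ptprc* thus lay near the limit on both arrays. Of the neutrophil markers, all 5 measured of 7 were lower (3 of 5 when each array was divided by its median, and 4 of 5 with normexp background correction), with a median of −0.08 (−0.10 to −0.01 over the alternatives), from −0.56 for *Mpo* to −0.02 for *Elane* and *S100a9*, and summed signals of 11.2 and 10.9, while *Ltf* and *Ngp* did not stand well above background in either genotype.

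Markers of bone were mostly higher in *Sox21* KO, as the osteoclast genes were. Of the 11 measured of 12 bone and osteoblast genes, 10 were higher and 1 lower in *Sox21* KO, against 50.4% higher among all genes. With the percentile taken over non-control spots or with normexp background correction, these counts were 8 and 3. By more than the median spot SD, 8 were higher and 1 lower. The median log2 ratio was 0.26, and the summed normalised signals were 1330 in wild-type and 1571 in *Sox21* KO. Of these sums, 1165 and 1352 came from the collagen genes *Col1a1* and *Col1a2*, which many connective tissue cells express, and the sum of the other 9 was 165 and 219. *Dmp1*, a matrix protein of osteocytes and odontoblasts, was the highest (2.41 and 4.60, log2 ratio 0.93), *Runx2*, the transcription factor that starts bone formation, was the lowest by its brighter probe (0.901 and 0.842, log2 ratio −0.10) while its dimmer probe gave 0.24, and *Sost*, a marker of osteocytes, did not stand well above background in either genotype. The part of attached bone in the ratios of the osteoclast genes was not tested. Of the tooth germ markers, 4 of 8 were higher and 4 lower, with a median of 0.03 (0.01 to 0.11 over the alternatives), from −0.65 for *Enam* to 0.63 for *Odam*, both enamel-organ genes, and summed signals of 3218 and 2967, most of it from the enamel matrix genes *Amelx*, *Ambn* and *Enam*. All 8 were well above background in both genotypes, so markers of the labelled tissue were present.

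The promoters were read to show what the genes share in sequence. RefSeq promoter entries (GRCm38.p6) were found for 6 of the 10 genes, as 9 entries, since *Acp5* has 3 and *Calcr* 2. Each was searched over the 250 bases before the transcription start, on both strands, for 5 short motifs, of which GAGGAA and GGAAA can overlap. The NFAT core GGAAA was found in 6 of the 9 entries and in 55.6% of all 32851 promoters. The PU.1 motif GAGGAA was found in 2 of 9 (23.3% of all), the MITF motif CATGTG in 2 of 9 (12.3%), the SOX motif ACAAT in 3 of 9 (27.7%) and the AP-1 motif TGANTCA in 0 of 9 (6.75%). A match describes letters in a window and not a bound site, and motifs this short are found in many promoters. The entries of *Oscar* and *Acp5* are printed because they hold the most matches to the NFAT core, 3 and 2, with these in capitals (TTTCC is GGAAA on the other strand).
Oscar, chr7:3616158-3616407, minus strand: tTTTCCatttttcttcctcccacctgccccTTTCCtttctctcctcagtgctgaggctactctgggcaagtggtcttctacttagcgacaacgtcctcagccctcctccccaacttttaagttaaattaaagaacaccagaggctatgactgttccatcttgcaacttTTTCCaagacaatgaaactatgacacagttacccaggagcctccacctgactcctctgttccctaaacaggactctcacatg
Acp5, chr9:22130599-22130848, minus strand: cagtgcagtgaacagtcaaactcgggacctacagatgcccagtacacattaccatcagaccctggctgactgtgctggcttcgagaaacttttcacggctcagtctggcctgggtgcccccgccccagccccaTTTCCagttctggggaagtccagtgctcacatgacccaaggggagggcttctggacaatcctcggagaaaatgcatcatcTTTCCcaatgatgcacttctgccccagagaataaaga

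All 13 probes kept a log2 ratio above 0 under the other scalings and the other background correction that were tried. With each array divided by its median, the median of all genes moved to 0.08 and that of the 10 osteoclast genes to 0.54, and among all genes at least 2-fold apart 59.2% were higher in *Sox21* KO against 45.9% with the 75th percentile. Dividing by another number shifts every log2 ratio of the arrays alike, so this alternative could not alter how the osteoclast genes lay relative to other genes. With quantile normalisation the median of the 10 was 0.43, and with normexp background correction it was 0.44. The normexp correction moved 3 dim probes by more than the median spot SD, to 1.01 for *Calcr*, 0.67 for *Tnfrsf11b* and 0.45 for *Tnfsf11*.

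**Figure D3:**
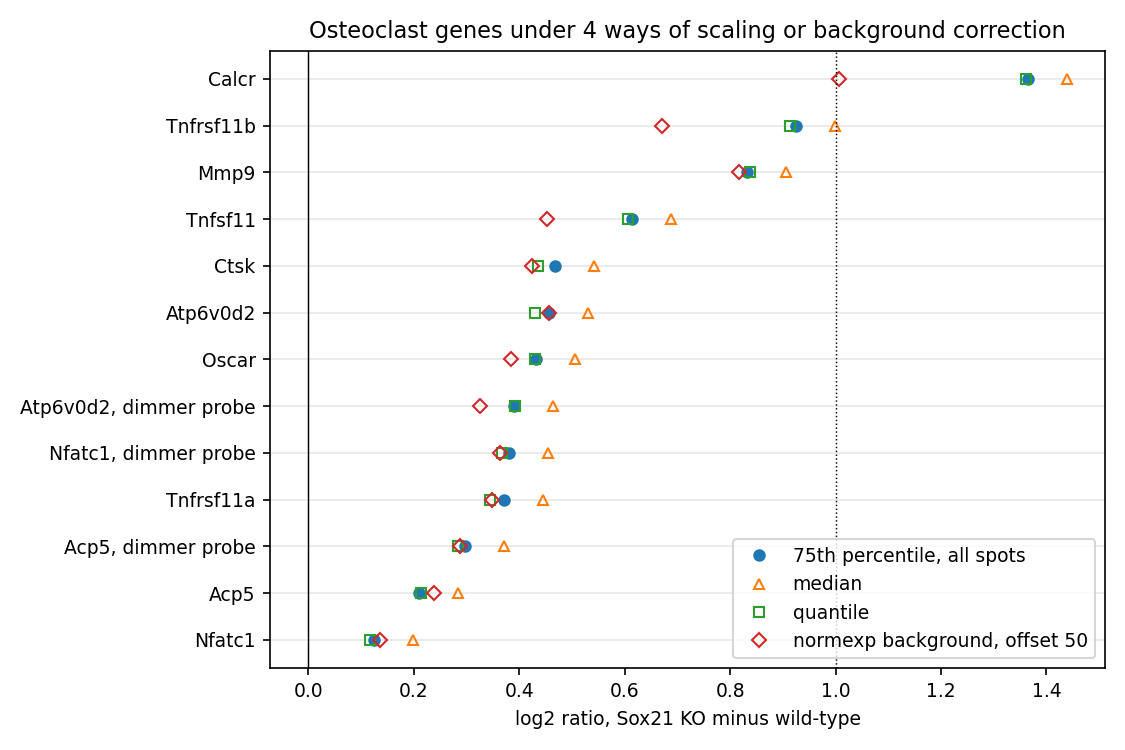
Log2 ratio (*Sox21* KO minus wild-type) of each osteoclast gene probe under the 75th percentile, the array median, quantile normalisation and normexp background correction with an offset of 50. The dotted line marks 2-fold. All points lie above 0, and the normexp points of *Calcr* (1.01), *Tnfrsf11b* (0.67) and *Tnfsf11* (0.45) lie to the left of the others.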

How the data were processed

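Per the labels, RNA of 1 wild-type and 1 *Sox21* KO incisor sample was labelled with Cy3 and hybridised to single-dye Agilent arrays, and Feature Extraction 10.7.3.1 read the scans. The authors deposited, for each spot, a processed intensity with background removed, its scanner error and the raw intensity, and a table of ratios in which each processed intensity is divided by 1 number per array (constant to 1.37e-06), which lies at the 75th percentile. The methods name GeneSpring, a percentile shift and a filter on low signals without its threshold.

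Each processed intensity was divided by that percentile, 267 outlier spots were left out, repeat spots were averaged as log2 values, and the brightest probe well above background on both arrays stood for a gene. No test was run, since there was 1 array per genotype. The number of arrays limits the precision. The 10 osteoclast genes and 11 further lists (98 symbols, of which 98 have a probe, 5 of them found under an older name) were chosen with earlier results of these data known. Named from the lists were the highest and lowest measured gene, any gene at least 2-fold apart and any gene measured on 1 array alone. Genes named beyond this rule were chosen after their values were seen. Probe positions are those of the deposited annotation (mm9), and whether a probe lies in a UTR was not looked up; promoters are RefSeq's (GRCm38.p6). The *Nfatc1* probes and promoter are not shown as sequence. Wild-type skin arrays of the study, and the wild-type tooth sample set against them, were not analysed here. Alternatives were other percentiles or spots for the scaling, quantile normalisation, normexp correction of the raw intensities (offset 50), the deposited ratios, other filters on dim probes, the mean over probes, outlier spots kept and a 1.5-fold threshold. Python 3.11.15, pandas 2.3.3 and limma 3.58.1 in R 4.3.3 were used, and the steps were tested on simulated data.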

Additional observations from a re-analysis of the deposited data

How the results depend on the processing

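The values describe 2 RNA samples, and nothing in them separates genotype from animal, dissection or array. No paired analysis was possible because no test was made with 1 array per genotype, and no array could be left out. Of 9 alternatives, 4 (the deposited ratios, both filters on dim probes and outlier spots kept) could not or did not move the osteoclast genes and say nothing about stability. Under the other 5 (scaling, background and probe choice), the 10 osteoclast genes had log2 ratios above 0, with medians between 0.43 and 0.54. Of 52 probe values under 4 settings of scaling and background, 3 moved by more than the median spot SD (the dim probes under normexp, given above) and 0 changed sign. Of 99 list medians, 0 changed sign and 4 moved by more than that: the calcitonin system (both given above), the macrophage markers (0.22 with no requirement of being well above background) and the CSF1 axis (0.49 with the mean over probes). The 99 include those under the deposited ratios and with outlier spots kept, which left the list medians practically unmoved and say nothing about stability. The counts of genes at least 2-fold higher and lower, 134 and 158, were less stable: they were 1007 and 1599 with no requirement of being well above background, 63 and 61 with a processed signal of at least 100 on both arrays, 63 and 56 with normexp background correction, and 594 and 736 at a threshold of 1.5-fold. The first 2 of these alternatives differ from the reported counts only in which probes they admit.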

Other observations

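Several genes of the lists had probes that disagreed, and the rule of taking the brightest probe set their value. *Csf1r*, the receptor for CSF1, gave a log2 ratio of 0.33 at its brightest probe, with 0.84 and −0.01 at the others. *Nfkb1*, an NF-kB subunit, gave 0.16 at the brighter probe and −0.43 at the dimmer one, and *Map3k14*, the kinase of the alternative NF-kB pathway, gave −0.40 and 0.34. *Itgam*, the integrin alpha M chain of myeloid cells, gave −0.46 at a bright probe (normalised signal 53.6 in wild-type and 38.9 in *Sox21* KO) and 0.09 at a dim one (0.216 and 0.229), with a further probe not well above background on either array. With the mean over all measured probes of a gene, *Nfatc1* had a log2 ratio of 0.25 and the median of the CSF1 axis was 0.49.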
